A study of Mus musculus with 12 samples.

Results

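Levels of the nuclear body genes Sp110, C130026I21Rik, A530032D15Rik, Sp100 and Sp140 were followed in 12 single mouse blastomeres, the 2 cells of each of 6 embryos split at the 2-cell stage. Members were all non-control array probes carrying 1 of these 5 gene names, either in the scanner files or through their RefSeq accession. This gave 7 probes of 41174 on the array, for 4 of the 5 genes and of 21232 gene symbols with a probe: 1 probe for Sp110, 2 for C130026I21Rik, 1 for A530032D15Rik and 3 for Sp100. Sp140 is not analysed here on the array, as no probe matched it. The genes were selected on the signal of these same cells, because Sp110, C130026I21Rik and A530032D15Rik differed between embryos. Differences between embryos are therefore given as values, with no test.

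All embryos came from naturally bred CF-1 mice, an outbred stock, and were flushed from the oviduct about 36 h post coitus. Experiment 2 held pairs G, H and D and experiment 1 held pairs I, L and D, where a pair is the 2 cells of 1 embryo. Pair D of experiment 2 and pair D of experiment 1 are different embryos as far as the labels go. No embryo was treated, and the labels do not say what cell numbers 1 and 2 stand for. Poly(A) RNA went through 2 amplification rounds per cell before labelling, and every cell filled 1 Agilent array. Experiment 2 was read in Cy3 alone and experiment 1 in Cy5 from a 2-channel scan, on other slides, so experiment, dye, scan and slide cannot be told apart. Fewer transcripts in a cell and poorer amplification of its RNA cannot be told apart either.

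Proteins of the Sp100 family sit in nuclear bodies, the small protein-rich foci organised by PML, and carry SAND, PHD and bromodomain modules that bind DNA or chromatin. Interferon induces several of them, and Sp100 is a standing component of PML bodies. Sp110 is also known in mice as Ipr1, from a chromosome 1 locus that sets resistance to tuberculosis, and Sp140 is best known from leukocytes, where it restrains the type I interferon response. C130026I21Rik and A530032D15Rik carry clone names and have no role given here. The 2-cell stage is when the mouse embryo replaces maternal transcripts with its own.

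The promoter sequences of the clone-named genes are shown because they nearly match that of Sp140. All 5 genes lie on mouse chromosome 1 and have a promoter in RefSeq GRCm38.p6, 7 windows in all, each running from 250 bases before to 50 after an annotated start. Capitals mark the run of 146 bases that the windows of A530032D15Rik (chr1:85109804-85110103, minus strand), C130026I21Rik (chr1:85270517-85270816, minus strand) and Sp140 (chr1:85600453-85600752, plus strand) share exactly.
A530032D15Rik: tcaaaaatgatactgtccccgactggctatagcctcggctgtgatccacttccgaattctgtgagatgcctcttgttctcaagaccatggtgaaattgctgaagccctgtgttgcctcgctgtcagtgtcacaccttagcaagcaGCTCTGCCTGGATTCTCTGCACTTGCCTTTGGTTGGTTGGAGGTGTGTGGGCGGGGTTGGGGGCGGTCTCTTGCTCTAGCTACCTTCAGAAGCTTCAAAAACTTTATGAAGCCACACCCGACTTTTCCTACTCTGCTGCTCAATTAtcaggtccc
C130026I21Rik: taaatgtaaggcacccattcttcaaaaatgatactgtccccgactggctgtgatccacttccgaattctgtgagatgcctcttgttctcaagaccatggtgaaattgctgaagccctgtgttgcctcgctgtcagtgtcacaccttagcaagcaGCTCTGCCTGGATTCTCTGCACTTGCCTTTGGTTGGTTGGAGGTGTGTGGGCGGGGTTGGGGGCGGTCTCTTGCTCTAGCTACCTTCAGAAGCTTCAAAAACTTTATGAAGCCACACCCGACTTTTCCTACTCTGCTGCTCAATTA
Sp140: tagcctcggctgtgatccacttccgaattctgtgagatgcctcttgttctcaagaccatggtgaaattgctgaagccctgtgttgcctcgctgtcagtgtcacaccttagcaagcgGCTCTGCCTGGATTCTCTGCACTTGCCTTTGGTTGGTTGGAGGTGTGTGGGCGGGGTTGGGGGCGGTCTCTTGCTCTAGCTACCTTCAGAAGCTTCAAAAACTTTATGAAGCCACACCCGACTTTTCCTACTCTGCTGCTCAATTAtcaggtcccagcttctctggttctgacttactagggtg
A530032D15Rik matched Sp140 at 270 of 271 positions of their best ungapped overlap (99.6%), and C130026I21Rik matched it at 254 of 262 (96.9%). A530032D15Rik and C130026I21Rik shared an exact run of 255 bases. Their annotated starts are thus near copies of each other. The letters of the array probes were not used here, so which of the copies each probe reads was not tested, and values of these genes are uncertain between copies.

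The windows of Sp110 and Sp100 did not resemble that group: neither shared a run of over 11 bases with any window of another member. They are shown because both hold 2 GAAA blocks set 3 bases apart (GAAANNNGAAA), a spacing picked after reading the letters. Capitals mark it on the other strand in 61 bases of Sp110 (chr1:85598766-85598826, minus strand) and of Sp100 (chr1:85649916-85649976, plus strand).
Sp110: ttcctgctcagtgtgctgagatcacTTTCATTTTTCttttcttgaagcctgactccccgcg
Sp100: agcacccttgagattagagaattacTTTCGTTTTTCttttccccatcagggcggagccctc
On both strands, GAAANNNGAAA was present in 3 of the 7 windows, 1 of the 2 for Sp110 and both overlapping windows of Sp100, and in 2.75% of all 32851 promoters. The blocks 2 bases apart (GAAANNGAAA), the spacing usual for interferon response elements, were in 0 of the 7 windows and 3.44% of all promoters. The STAT palindrome TTCNNNGAA was in 0 of the 7 windows and 8.30% of all promoters. These are matches of letters only.

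Levels below are log2 signals scaled to each array's 75th percentile, taken over the 5858 probes that were well above background throughout, so 0 equals that percentile, and signals under a common floor read -4.12. The share of spots well above background was 31.2 to 78.8% in experiment 2 and 22.1 to 41.7% in experiment 1. Oocyte and 2-cell markers gave a summed scaled signal of 67.1 to 98.0 in experiment 2 and 60.9 to 116 in experiment 1. Bright genes such as Oosp1 weigh most in these sums. Of the 14 marker probes, 11 to 14 were well above background in experiment 2 and 10 to 13 in experiment 1. Most of these probes were thus detected in every cell, though Zp2 averaged only -3.48 and -3.68 in the 2 experiments. Of the 7 member probes, 5 were well above background on at least 6 arrays and were tested among 16694 probes, and Sp100 probes 2 and 3 were not. A member that passed this filter through the embryos in which it was bright had to vary, so the tested members are not all members.

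Sp110 (probe A_52_P512201), the interferon-inducible nuclear body gene, was well above background in all 12 cells. In pair I the 2 cells read 2.63 and 2.69, against 4.02 and 4.25 in pair L and 3.96 and 4.03 in pair D of experiment 1. Pair I cells lay below every other cell of the study, and pairs L and D overlapped. In experiment 2, Sp110 read 3.54 and 3.39 in pair G, 3.92 and 3.88 in pair H and 3.79 and 3.77 in pair D. Pair G was the lowest of these and the order H, D, G held in both cells, but the whole range over the embryos was 0.44 log2 units, against 1.47 in experiment 1. Pair I averaged 2.66 ± 0.042 and pair L 4.13 ± 0.17 (SD, n = 2 cells each). The signal in pair I was 2.78-fold lower than in pair L and 2.53-fold lower than in pair D.

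C130026I21Rik probe 1 (A_51_P231820) was not well above background in pair I, where both cells sat at the floor. It read -0.98 and -0.28 in pair L and 0.27 and 0.30 in pair D of experiment 1, so pairs L and D did not overlap. Experiment 2 values were closer together, at 0.65 and 1.26 in pair G, 1.15 and 0.78 in pair H and 1.38 and 0.86 in pair D, and all 3 embryos overlapped. Set against the lowest signal called well above background on each array of pair I, pair I was at least 57.7-fold lower than pair L and at least 109-fold lower than pair D. On the floored log2 scale these differences were -3.49 and -4.41.

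C130026I21Rik probe 2 (A_52_P332788) stayed near the floor. In experiment 1 it read -4.12 in both cells of pair I, -4.12 and -3.99 in pair L and -3.66 in both cells of pair D. Pair I overlapped pair L, which probe 1 did not show. Experiment 2 gave -4.07 and -2.85 in pair G, -4.03 and -1.89 in pair H and -2.22 and -2.32 in pair D, so the twins of pairs G and H differed by 1.22 and 2.14 log2 units. The 2 probes of this gene thus disagree on the size of the embryo difference: -0.26 for probe 2 and -3.95 for probe 1, as pair I minus the mean of pairs L and D. The floor sets the first of these, since pair I was called well above background for probe 2 and then raised to the floor. With a floor per array it was -1.47.

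A530032D15Rik (A_52_P499640) was well above background in all 12 cells. It read -2.26 and -2.27 in pair I, -0.74 and -0.51 in pair L and 1.22 and 1.24 in pair D of experiment 1. The embryos of experiment 1 were fully separated, in the order D, L, I, and twins lay within 0.23 log2 units. Pair I was 3.12-fold lower than pair L and 11.3-fold lower than pair D. Experiment 2 gave 2.09 and 2.36 in pair G, 1.20 and 1.02 in pair H and 1.07 and 2.03 in pair D. Pair G exceeded the other 2 embryos there, while pairs H and D overlapped, so the embryo with the highest A530032D15Rik was the one with the lowest Sp110.

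Sp100 probe 1 (A_51_P305583), for the PML body component, was dim. It sat at the floor in both cells of pair I, and read -4.10 and -2.72 in pair L and -3.89 and -3.02 in pair D of experiment 1. Both cells of pair I were called well above background and then raised to the floor, while cell 1 of pair D was not well above background. In experiment 2 the probe was at the floor in cell 1 of pair G and in both cells of pair H. It was at -2.53 in cell 2 of pair G, and at -1.62 and -1.78 in pair D. Pair D of experiment 2 was clear of all other cells for this probe, a pattern that Sp110 did not have. The arrays of that pair had a slide to themselves and the largest shares of spots well above background, 78.8 and 64.3%. Itm2c, a dim gene nearby, had a like pattern in experiment 2, at -1.68 and -1.56 in pair D and -2.46 in cell 2 of pair G. The part of array detection in the Sp100 pattern was not tested. Sp100 probe 2 (A_51_P255016) was well above background in 3 cells, all of experiment 2, reading -3.43 and -3.97 in pair D and the floor in cell 2 of pair G. Sp100 probe 3 (A_52_P127720) was not well above background in any cell.

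**Figure D1:**
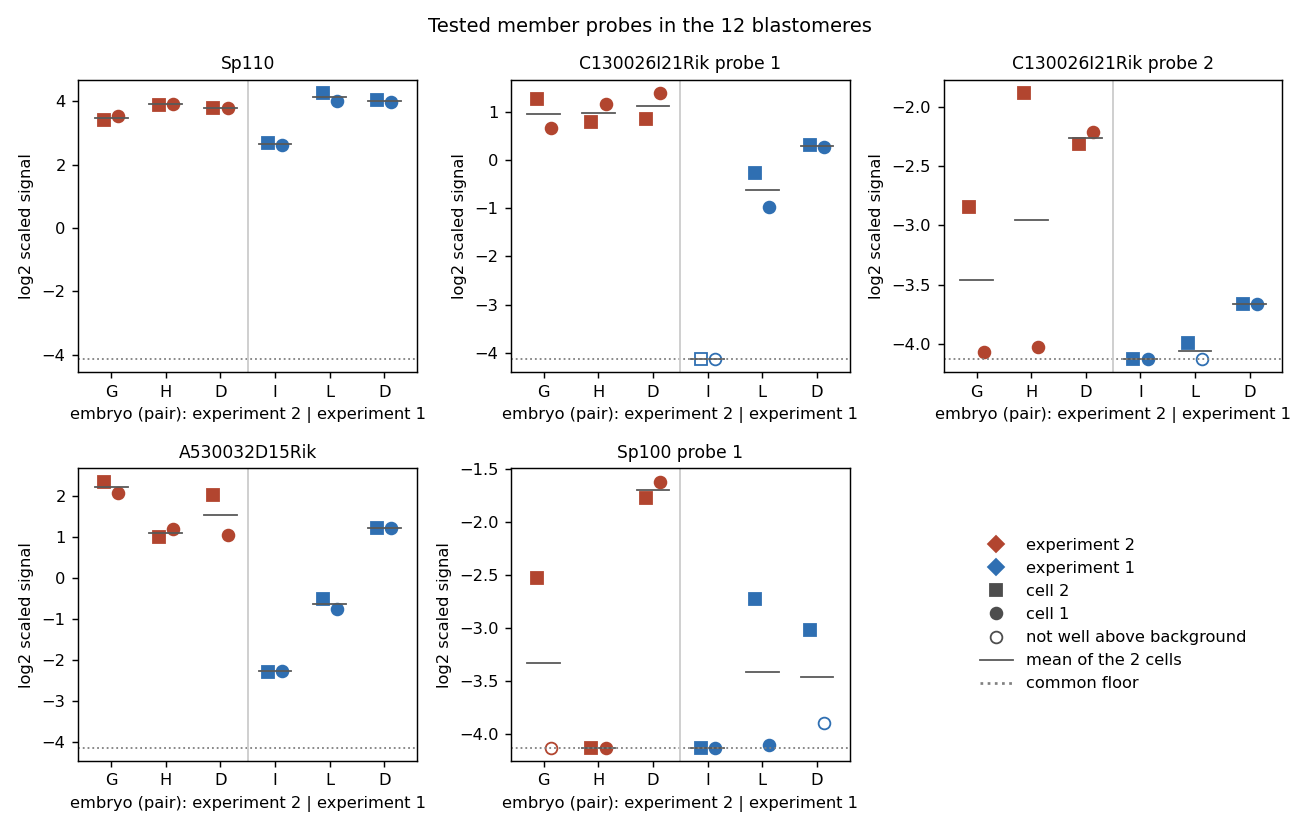
Log2 scaled signal (y axis, own range in each panel) of the 5 tested member probes in each embryo (x axis), experiment 2 left and experiment 1 right. Squares are cell 2 and circles cell 1, open symbols were not well above background, bars are means of the 2 cells and the dotted line is the floor of -4.12. Sp110, A530032D15Rik and C130026I21Rik probe 1 are lowest in pair I.

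Both cells of pair I lay below the 4 other cells of experiment 1 for 4 of the 5 tested member probes, all but C130026I21Rik probe 2, and for 6.42% of all tested probes. Sp100 probe 1 counts among these only by values at the floor, with pair I at -4.12 and cell 1 of pair L at -4.10. For 3 of the 5, pair I was also at least 1 log2 unit under the mean of pairs L and D, against 3.05% of all tested probes. The differences were -1.41 for Sp110, -3.95 for C130026I21Rik probe 1, -2.57 for A530032D15Rik and -0.69 for Sp100 probe 1, beside a median of -0.14 over all tested probes. The moderated F test between embryos called 1.40% of all tested probes. These shares stand beside the members for scale only, since the contrast chose them. Pairs I and L shared a slide, and within it pair I minus pair L was -1.47 for Sp110, -3.49 for C130026I21Rik probe 1 and -1.64 for A530032D15Rik. Scaling changed the size for Sp110, whose pair I difference was -1.10 after quantile normalization and -0.63 with the percentile of all probes, where the medians over all tested probes were 0 and 0.12. Leukocyte markers summed to 10.7 and 22.3 in pair I, inside the range of 5.60 to 229 in pairs L and D. Oviduct epithelium markers summed to 17.6 to 66.9 in pair I and 8.90 to 48.0 in pairs L and D. Their part in the differences was not tested.

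Neighbouring genes on chromosome 1 did not all follow. In the gene table the order runs A530032D15Rik, A530040E14Rik, C130026I21Rik, Sp110, Sp140, Sp100, with further genes between. Within 1 Mb on each side, 26 other genes had a probe and 13 were tested. At each gene's brightest probe, both pair I cells were below the other 4 cells of experiment 1 for 2 of these 13, A530040E14Rik and Pde6d, named after their values were seen. A dimmer Cab39 probe did so too, at -1.56. For Pde6d and this Cab39 probe, pair I sat at the floor. Pde6d counts only by values at the floor, with cell 1 of pair D at -4.09. The median difference of the 13 was 0, with a range of -1.31 to 1.32. Both pair I cells sat at the floor for Dner, Itm2c, 4933407L21Rik, Armc9, Tex44 and Pde6d, so the floor limits any fall there. Dner and Tex44 were at the floor in every cell of experiment 1, which fixes their difference at 0. Among genes above the floor in all those cells, Trip12 (0.10), Fbxo36 (1.32), Ncl (0.37) and Ptma (0.49) were not lower in pair I. Cab39 (-0.36) and A530040E14Rik were. A530040E14Rik, a long non-coding RNA whose record overlaps A530032D15Rik, gave the lowest of these 13 values. It read -1.10 and -0.42 in pair I, 0.27 and 1.17 in pair L and -0.15 and 0.92 in pair D of experiment 1. Pair I and pair D were closer here than for A530032D15Rik, and twins lay further apart.

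**Figure D2:**
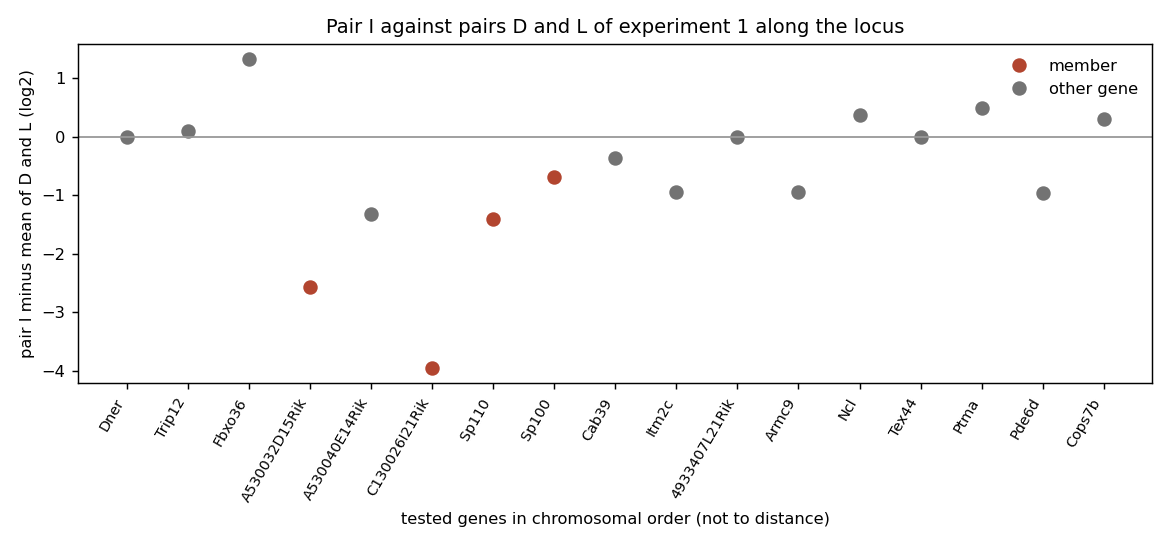
Pair I minus the mean of pairs L and D of experiment 1, in log2 units (y axis), for the tested genes within 1 Mb of the members, in chromosomal order (x axis, evenly spaced), with each gene at its brightest probe. Red points are members and grey points other genes. Members run from -3.95 to -0.69 and the 13 other genes from -1.31 to 1.32. Where pair I sits at the floor, the floor limits the difference.

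Whether members differed between the experiments was tested with limma, embryo as a random block. All 5 tested probes had a higher mean in experiment 2, and 0 passed at an adjusted p under 0.05, beside 8.10% of all tested probes (3.95% higher and 4.15% lower). The median difference over all tested probes was itself 0.19, and Sp110, at 0.12, lay below it. By unadjusted p, 2 of the 5 fell under 0.05, A530032D15Rik and C130026I21Rik probe 1, beside 19.2% of all tested probes. A530032D15Rik averaged 1.63 ± 0.60 in experiment 2 and -0.55 ± 1.57 in experiment 1 (SD, n = 6 cells each), a difference of 2.18 ± 0.66 (SE) and 4.54-fold in the fit, with a limma adjusted p of 0.0666. With the tests limited to probes measured in every cell, the same difference passed, with a limma adjusted p of 0.0146, as did 22.8% of all probes so limited. With cells averaged per embryo, over all tested probes, it was 2.18 ± 0.90 (SE, limma adjusted p = 0.265). C130026I21Rik probe 1 averaged 1.01 ± 0.29 in experiment 2 and -1.49 ± 2.09 in experiment 1 (SD, n = 6 cells each), a difference of 2.50 ± 0.82 (SE, limma adjusted p = 0.0917). Only 4 of the 6 cells of experiment 1 measured it, so this size depends on the floor. It was the 1 member of 5 whose 6 cells of experiment 2 all lay above the 6 of experiment 1, as did 3.70% of all tested probes.

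Pair I weighed on these differences. Without its 2 cells, a setting added after seeing the data, the difference was 1.33 ± 0.52 for A530032D15Rik and 1.19 ± 0.34 for C130026I21Rik probe 1 (SE; limma adjusted p = 0.231 and 0.0856). Sp110 averaged 3.72 ± 0.21 in experiment 2 and 3.60 ± 0.73 in experiment 1 (SD, n = 6 cells each), a difference of 0.12 ± 0.31 (SE, limma adjusted p = 0.849) that turned to -0.35 ± 0.16 without pair I. C130026I21Rik probe 2 differed by 1.05 ± 0.49 and Sp100 probe 1 by 0.61 ± 0.60 (SE; limma adjusted p = 0.269 and 0.606), and the Sp100 difference turned negative under 4 other settings of floor and background.

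Among the 13 tested neighbours, 11 had a higher mean in experiment 2, 1 was lower, 1 sat at the floor in every cell, and 2 passed. These 2 stand beside 9.26% of all tested genes that passed. A530040E14Rik read 2.46 and 2.19 in pair G, 2.13 and 1.97 in pair H and 1.73 and 2.21 in pair D of experiment 2, above all 6 cells of experiment 1. Its difference was 2.00 ± 0.40 (SE, limma adjusted p = 0.0107). Cab39, a scaffold of the LKB1 kinase complex, differed by 0.69 ± 0.19 (SE, limma adjusted p = 0.0490). The dimmer tested probes of Cab39 did not pass, at 1.15 ± 0.52 and 0.21 ± 0.21 (SE, limma adjusted p = 0.251 and 0.607). Over all tested genes the median difference between experiments was 0.19, so small positive values are the background here.

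**Figure D3:**
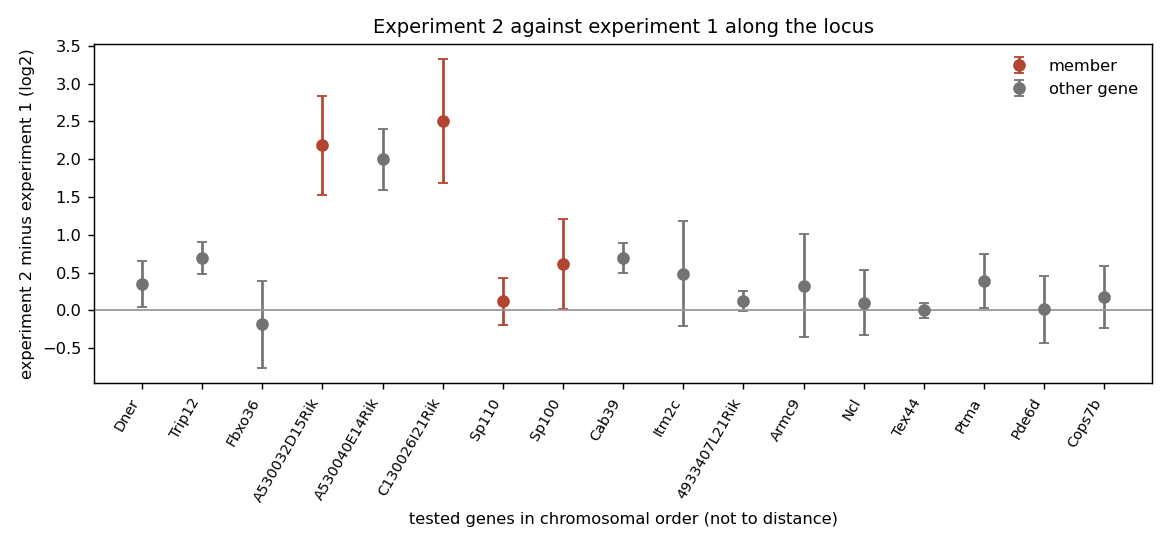
Experiment 2 minus experiment 1 in log2 units (y axis; bars are the SE of the limma fit) for the tested genes within 1 Mb of the members, in chromosomal order (x axis, evenly spaced), each at its brightest probe. Red points are members and grey points other genes. A530032D15Rik, A530040E14Rik and C130026I21Rik lie at 2.00 to 2.50, Sp110 at 0.12 and Sp100 at 0.61.

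Oviduct and leukocyte markers were lower in experiment 2, where the members had the higher means. Oviduct epithelium markers summed to 0.120 to 2.05 in experiment 2 and 8.90 to 66.9 in experiment 1, and 5 of 8 tested were lower in experiment 2, namely Ovgp1, the oviduct glycoprotein, Krt7, Krt8, Krt18 and Wfdc2. Leukocyte markers summed to 1.13 to 3.41 in experiment 2 and 5.60 to 229 in experiment 1, with 1 of 14 tested lower, the macrophage lysozyme Lyz2. Each of the 20 leukocyte markers was counted at its probe that was well above background on the most arrays. None of these counts was 0. They ran from 1 array for the defining Cd79a and Spi1 and 3 for Ptprc to 12 for Cd52 and Ms4a1. The part of oviduct and leukocyte markers in the member differences was not tested.

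Cell 2 and cell 1 of an embryo were compared with limma and embryo as a fixed block. The number of probes that passed was 0 of 5 members and 0% of all tested probes, of which 737 had an unadjusted p under 0.05, none of them a member. Sp110 differed by 0.029 ± 0.092 and was higher in cell 2 of 3 of 6 pairs, A530032D15Rik by 0.21 ± 0.17 (4 of 6) and C130026I21Rik probe 1 by 0.074 ± 0.20 (3 of 6) (SE, cell 2 minus cell 1). C130026I21Rik probe 2 differed by 0.56 ± 0.34 and Sp100 probe 1 by 0.61 ± 0.29, both dim and both carried by a few pairs. The root-mean-square twin difference was 0.12 for Sp110, 0.43 for A530032D15Rik, 0.46 for C130026I21Rik probe 1, 0.93 for Sp100 probe 1 and 1.01 for C130026I21Rik probe 2, beside a median of 0.66 over all tested probes. The 3 probes that stood well clear of the floor in most cells had the smaller of these values. The interaction test of cell number with experiment passed for 0 of 5 members and called 0% of all tested probes, of which 879 had an unadjusted p under 0.05, none of them a member.

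**Figure D4:**
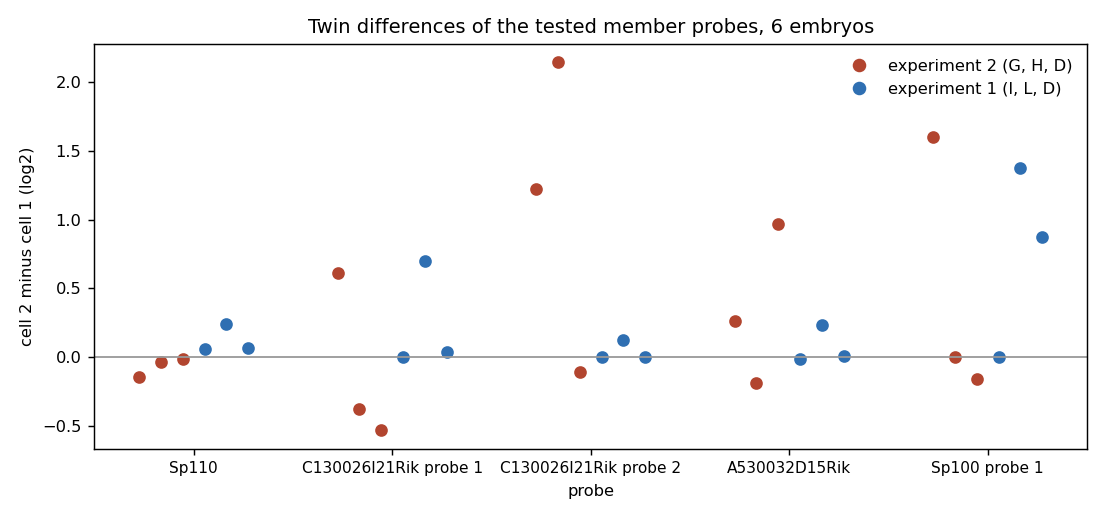
Cell 2 minus cell 1 in log2 units (y axis) for each tested member probe (x axis), 1 point per embryo, experiment 2 in red (G, H, D from left) and experiment 1 in blue (I, L, D from left). Sp110 points lie between -0.15 and 0.24, and the 2 highest points belong to C130026I21Rik probe 2 in pair H and Sp100 probe 1 in pair G.

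Other genes of the pathways were compared between experiments, where 9.26% of all tested genes passed in either direction. Of 26 genes for PML bodies and SUMO, the modifier that recruits their clients, 23 were tested: Sumo2 (1.16 ± 0.31) and Uba2, a subunit of the SUMO-activating enzyme (1.54 ± 0.32), were higher in experiment 2, and Trp53, the p53 gene, was lower (-1.57 ± 0.37; SE, limma adjusted p = 0.0384, 0.0117 and 0.0233). Of 15 relatives with SAND or PHD-bromodomain modules, 11 were tested and 1 passed, the transcriptional regulator Trim33 (1.43 ± 0.32, limma adjusted p = 0.0187). Of 44 genes of interferon signalling and response, 28 were tested, 0 were higher in experiment 2 and 3 were lower. These were the signalling factor Irf3 (-1.84 ± 0.37) and the membrane proteins Ifitm1 (-3.47 ± 0.60) and Ifitm3 (-3.00 ± 0.53; SE, limma adjusted p = 0.0103, 0.00501 and 0.00580), beside the oviduct markers above, which were also lower. Of 17 genes of 2-cell genome activation, 10 were tested and 3 were higher in experiment 2: Tcstv1 (2.11 ± 0.21), Tcstv3 (1.45 ± 0.25) and Tdpoz1 (1.86 ± 0.36; SE, limma adjusted p = 0.000193, 0.00477 and 0.00837). Median differences were 0.26, -0.21, 0.042 and 0.84 for these lists in turn, and none had a gene that passed between cell 2 and cell 1.

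In pair I, the list medians against pairs L and D were -0.46 for PML and SUMO genes, -0.25 for SAND and PHD-bromodomain relatives, -0.20 for interferon genes and -0.024 for 2-cell activation genes, beside -0.13 over all 11676 tested genes. Both pair I cells were below the 4 other cells of experiment 1, and at least 1 log2 unit under the mean of pairs L and D, for 3 of the 23 PML and SUMO genes (13.0%), against 3.12% of all tested genes. Named after their values were seen, these were the SUMO protease Senp6 (-1.12), Trp53 (-1.12) and the histone chaperone subunit Cabin1 (-1.08). Among interferon genes this held for 1 of 28, the interferon-induced Ifi44 (-1.33), and among 2-cell activation genes for 1 of 10, Tdpoz1 (-1.21), both also named after their values were seen. It held for 0 of 11 SAND and PHD-bromodomain relatives. The pair I mean of Ifi44 was at the floor, so the size of its difference depends on the floor. Senp6 (-3.88) and Tdpoz1 (-3.45) had pair I means not far above it.

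Profiles most like that of Sp110 were ranked by Pearson r over the 12 cells, after centring within each experiment. The 8 closest genes were Trim61 (r = 0.968), Tcra (0.960), E330034G19Rik (0.938), Lpo (0.919), Hprt (0.918), Tex19.1 (0.916), Eif5a2 (0.916) and Jph4 (0.908). Each of these was also lower in pair I, from -0.79 for Jph4 to -4.02 for Trim61. The ranking selects for this, as the low pair I is the largest feature of the Sp110 profile, so it is no separate result. Among members, C130026I21Rik followed Sp110 at r = 0.914, A530032D15Rik at 0.637 and Sp100 at 0.248. C130026I21Rik was closest to Olfr175 (0.935), Il27 (0.910) and Zmym1 (0.907), and A530032D15Rik to Slc34a2 (0.929), Tmem41b (0.921) and Rpl39l (0.867). The r between C130026I21Rik and A530032D15Rik was 0.854. Sp110, C130026I21Rik and A530032D15Rik were chosen because they differed between embryos in these cells. That choice favours a high r among them, so their r values are no separate result either. C130026I21Rik also enters with pair I at the floor. These values describe 12 cells that share embryos, arrays and slides.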

How the data were processed

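Scanner files of 12 arrays, 1 per blastomere, hold the authors' intensity values for each spot; per the file headers, the software was Agilent Feature Extraction, version 9.1.3.1. The deposited value table holds the same intensity divided by 1 constant per array and floored. The genome build of the probe design is not given in the sources used here. Processed signals of the channel holding the RNA were used, outlier spots left out, spots of a probe averaged, divided by the array's 75th percentile over 5858 probes well above background on all arrays (detection was under 50% on 9 arrays), raised to a common floor of 0.0574 and put on the log2 scale. Probes had to be well above background on 6 or more arrays to enter the tests, run with limma 3.58.1 in R 4.3.3, with Benjamini-Hochberg adjustment over 16694 probes and a threshold of 0.05. Embryo was a random block for experiment, with a consensus correlation of 0.35, and a fixed block for cell number. The fits were tested on simulated data, where the embryo and interaction fits recovered almost none of the smaller differences and larger ones were then added, so few calls by these fits do not show that differences are absent. Accessions were matched to the RefSeq gene table of GRCm38.p6, which named 22951 probes. A gene was represented by its brightest tested probe.

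The labels name Cy3 for every sample, but the arrays of experiment 1 carry their signal in Cy5. Each embryo gives 2 cells, so the number of embryos, 6, limits the precision between experiments. The experiment fit takes 1 correlation between twins for all probes, so its SE can be too small where twins are closer than that. P-values of the cell fit measure the spread of twin differences. Named genes were all member probes, genes with the closest profiles, passing list genes and tested neighbours. The members and lists were chosen with earlier results of these data known. Alternatives covered normalization, background correction (normexp, offset 50), floors, the deposited values, the filter on dim probes, left-out cells, blocks and slides. A further gene of the PML and SUMO list is not reported here.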

Additional observations from a re-analysis of the deposited data

Results flagged for a closer look

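Sp110 was lower in cell 2 of all 3 embryos of experiment 2 and higher in cell 2 of all 3 embryos of experiment 1. Cell 2 minus cell 1 was -0.15 in pair G, -0.035 in pair H and -0.015 in pair D of experiment 2, against 0.060 in pair I, 0.24 in pair L and 0.070 in pair D of experiment 1. The difference between the experiments was -0.19 ± 0.19 log2 units (SE) and did not pass the interaction test (limma adjusted p = 0.999, unadjusted p = 0.356). Sp100 probe 2, which was outside the tests, was well above background on 3 arrays, all of experiment 2. In the Cy3 channel of experiment 1, 0 of 42 readings of member probes were well above background. A check for a single cell standing apart, made for 10 sets of 6 cells, found none. The chance rate of about 1 in 20 holds for independent cells, and these sets are made of twins. Twins of an embryo that stands apart hide each other in such a check, so it cannot decide whether an embryo does.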

How the results depend on the processing

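Member differences between experiments kept their direction and their side of the threshold for both C130026I21Rik probes under all 22 alternatives run, with adjusted p from 0.083 to 0.32 for probe 1 and from 0.064 to 0.93 for probe 2. Their sizes moved, from 1.19 without pair I to 3.94 with a lower floor for probe 1, and from 0.073 with normexp to 1.90 with the deposited values for probe 2. A530032D15Rik kept its direction under 23 alternatives, from 1.33 to 2.39, and passed in 1, so that 1 member probe was called among probes well above background on all 12 arrays, a filter that keeps fewer probes and of the members only Sp110 and A530032D15Rik, and under which 22.8% of all probes passed. Sp110 turned to -0.35 without both cells of pair I, and ranged from -0.00026 to 0.21 when single cells were left out, the lowest without cell 1 of pair I. Sp100 probe 1 turned to -0.36 with a floor per array, -0.49 with a lower floor, -0.29 with the deposited values and -0.80 with normexp, for causes not tested.

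Cell 2 minus cell 1 was never called for a member. Its sign held under all 22 alternatives for C130026I21Rik probe 2 and Sp100 probe 1, and turned in 5 of 23 for Sp110, 6 of 22 for C130026I21Rik probe 1 and 1 of 23 for A530032D15Rik. With the percentile of all probes it was -0.48 for Sp110, -0.49 for C130026I21Rik probe 1 and -0.29 for A530032D15Rik. For Sp110 it was -0.018 after quantile normalization and -0.065 in experiment 2 alone, where C130026I21Rik probe 1 gave -0.097. In these paired fits a left-out cell took its twin with it, so the alternatives above count each left-out pair once per cell. Leaving out single pairs in this way gave -0.013 to 0.064 for Sp110 and -0.051 to 0.19 for C130026I21Rik probe 1. The cell difference between experiments ranged from -0.037 to 0.54 for A530032D15Rik and from -0.83 to 0.050 for Sp100 probe 1 without single pairs. For Sp100 probe 1 it turned to 0.049 with quantile normalization, 0.13 with the percentile of all probes, 1.09 with a floor per array, 1.37 with a lower floor, 1.31 with the deposited values and 1.29 with normexp.

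Pair I stayed lower for Sp110, C130026I21Rik probe 1 and A530032D15Rik under all 13 alternatives each, and also for C130026I21Rik probe 2, from -1.47 to -0.065, and Sp100 probe 1, from -1.61 to -0.30. Sp110 gave -1.10 with quantile normalization, -0.63 with the percentile of all probes and -1.28 with normexp. C130026I21Rik probe 1 gave -3.59 and -3.62 under the first 2 of these, -6.31 with a floor per array, -8.25 with a lower floor, -7.28 with the deposited values and -3.49 within the slide. A530032D15Rik gave -1.80 with the percentile of all probes, -2.24 with normexp and -1.64 within the slide. Normexp moved the median of all tested probes to -0.93, and relative to it Sp110 was at -0.35.

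Over all tested probes, 1353 passed between experiments, against 173 with the percentile of all probes, 368 with a floor per array, 596 with a lower floor, 702 with the deposited values, 530 with normexp, 823 with cells averaged per embryo and 868 without pair I. Leaving out single cells gave 796 to 1561, the lowest without cell 1 of pair L. The embryo F test, with 234 calls, gave 480 with quantile normalization, 4356 with a floor per array, 2 with a lower floor, 1 with the deposited values, 5834 with normexp, 30 among probes measured on all arrays, 2752 with no filter and 0 to 3875 without single cells. A fit that took cell number as a replicate block gave 0 there, while 1192 passed between experiments and no member call changed. Twin differences of different embryos correlated from -0.079 to 0.26 over 15 pairs of embryos, 3 of them above 0.1, so equal numbers are not taken to pair cells. Slide as a block was not run for the cell comparison, since twins share a slide.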
